A study of Homo sapiens with 8 samples.

Results

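The genes described are 10 members of the interleukin-6 (IL-6) family pathway, out of 61228 gene names listed in each count table. They are the ligands IL6, IL11, LIF and CLCF1, the receptor chains IL6ST, IL6R, IL11RA, LIFR and OSMR, and the feedback inhibitor SOCS3. IL11 led to the choice, and was chosen by its log2 fold changes with ACBI1, which were among the lowest shared by both cell lines. It ranked 3 by mean log2 fold change among 1161 genes called lower in both lines, leaving out genes under 5 CPM in both groups of a line. Its values are therefore given as a description with no test. The other 9 genes were taken because they belong to the pathway, with earlier results of these data known. Tests across all genes are given for them. All 10 had enough reads to be tested.

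The libraries came from H1975 and HCC44, both human lung cancer cell lines whose genotype is labelled WT. Cells of each line received the solvent DMSO or ACBI1, labelled as 1 mM for 96 hours. There were 4 groups of 2 libraries. That concentration is far above those usual for such compounds, so its unit is uncertain. ACBI1 links the VHL ubiquitin ligase to the bromodomains of SMARCA2, SMARCA4 and PBRM1, all part of SWI/SNF, the chromatin remodelling complex, and so marks them for degradation. Untreated cells, an inactive control compound and protein levels were not analysed here. The labels do not say that the replicates were separate cultures, so p-values measure only the spread between libraries, which may be technical. In RNA from bulk cultures, fewer cells making a transcript and less of it per cell cannot be told apart.

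Members of this cytokine family signal through a shared receptor chain, gp130, which is encoded by IL6ST. IL-6 and IL-11 first bind their own chains, IL6R and IL11RA, which then join gp130. LIF joins LIFR to gp130, oncostatin M pairs gp130 with OSMR or LIFR, and CLCF1 acts through LIFR together with a further chain, CNTFR. The assembled receptors activate JAK kinases and above all the transcription factor STAT3. One of its targets is SOCS3, which binds gp130 and the JAKs and shuts the signal down. In lung cancer cells these cytokines are known as autocrine growth and survival signals.

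Counts assigned to genes ranged from 62467286 to 70455517 per library, and all 8 libraries correlated best with the other library of their own group. The epithelial markers EPCAM, KRT8, KRT18, KRT19 and CDH1 summed to 2152 to 2270 CPM (reads per 1000000 reads of the TMM-scaled library) in H1975 DMSO and 1035 to 1205 CPM in H1975 ACBI1. In HCC44 the sums were 517 to 521 CPM with DMSO and 449 to 536 CPM with ACBI1. In H1975, 3 of these 5 markers fell with ACBI1. In HCC44, 1 rose, EPCAM (log2 fold change 0.84), and 1 fell, KRT8 (-0.52). The part of these shifts in the results below was not tested. Summed leukocyte markers were at most 3.55 CPM and endothelial markers at most 4.01 CPM in any library. Of the 5 leukocyte markers, 4 were under 1 CPM in every group. Fibroblast markers, nearly all of them COL1A1, summed to 48.9 to 72.0 CPM in H1975 DMSO and 25.5 to 30.5 CPM in H1975 ACBI1. In HCC44 they summed to 74.3 to 92.7 CPM with DMSO and 207 to 411 CPM with ACBI1, so the sums were lower with ACBI1 in H1975 and higher with it in HCC44, and their part in the results was not tested.

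The upstream sequences of IL11 and IL6 are shown because the expression of these ligands is compared throughout. They come from RefSeq, build GRCh38.p14, and are written 5′ to 3′ on each gene's own strand. Capitals mark matches to an AP-1 motif (TGANTCA), a C/EBP motif (TTGCNCAA) or the NF-kB motif, each searched on both strands. The IL11 stretch is chr19:55370464-55370713 on the minus strand and ends at the base before the gene's start. The IL6 stretch is chr7:22726950-22727146 on the plus strand, shortened at its 3′ end to leave out an annotated upstream exon. Its full window ends at chr7:22727199, and IL6 match positions are counted from the base after that. This start lies inside the IL6 gene position given below, not at its 5′ end.
IL11: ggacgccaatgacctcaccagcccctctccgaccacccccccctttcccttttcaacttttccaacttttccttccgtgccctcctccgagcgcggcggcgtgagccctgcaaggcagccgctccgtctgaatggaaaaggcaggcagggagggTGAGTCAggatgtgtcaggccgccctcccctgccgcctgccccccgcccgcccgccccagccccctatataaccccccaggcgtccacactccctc
IL6: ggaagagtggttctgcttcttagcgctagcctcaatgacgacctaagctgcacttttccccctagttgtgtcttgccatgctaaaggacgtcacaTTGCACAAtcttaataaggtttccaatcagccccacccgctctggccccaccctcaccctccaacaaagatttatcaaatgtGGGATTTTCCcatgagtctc

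The IL11 window held 1 AP-1 match, TGAGTCA, 96 to 90 bases upstream of the start. AP-1 is the dimer of FOS and JUN proteins. The IL6 window held 1 C/EBP match, TTGCACAA, 155 to 148 bases upstream, and 1 NF-kB match, GGGATTTTCC, 73 to 64 bases upstream. Among 35116 promoter windows of the table, 6.57% held the AP-1 motif, 2.27% the C/EBP motif and 9.96% the NF-kB motif. A cyclic AMP response motif (TGACGTCA), present in 1.65% of windows, was found in none of the members' 12 windows. A STAT motif (TTCNNNGAA), present in 6.57% of windows, was found in a window of LIFR at TTCATCGAA and TTCCTTGAA. NF-kB motif matches were also found in windows of IL6ST and IL11RA. Of the 10 members, 8 had an entry in the table, and LIF and CLCF1 are named only. For IL6, IL11RA, LIFR and SOCS3 the windows lie away from the 5′ end of the gene position given below. The bases just upstream of that end were not searched, so a missing match, as of the STAT motif in SOCS3, holds for the windows only. These matches describe letters in a window and were not tested as binding sites.

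IL11 encodes a secreted cytokine known for roles in fibrosis and epithelial tumours, and it lies at chr19:55364389-55370463 on the minus strand of GRCh38, the build of all gene positions given. In H1975 it was at 214 and 264 CPM in the DMSO libraries and at 25.3 and 28.2 CPM in the ACBI1 libraries. In HCC44 it was at 422 and 303 CPM with DMSO and at 8.71 and 10.4 CPM with ACBI1. The DMSO and ACBI1 libraries were far apart in both lines, and the lowest DMSO library of either line was above every ACBI1 library. Fitted levels were 8.92-fold lower with ACBI1 in H1975 and 38.0-fold lower in HCC44. The log2 fold changes were -3.16 ± 0.18 (SE) and -5.25 ± 0.20. No other gene of GENCODE release 29 overlaps the exons of IL11.

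LIF moved the other way. LIF encodes leukaemia inhibitory factor, which acts through LIFR and gp130, and it lies at chr22:30240447-30246851. In H1975 it was at 176 and 134 CPM with DMSO and at 234 and 210 CPM with ACBI1. The HCC44 libraries were at 145 and 178 CPM with DMSO and at 298 and 289 CPM with ACBI1. Both ACBI1 libraries were above both DMSO libraries in each line. LIF rose 1.43-fold in H1975 (log2 fold change 0.52 ± 0.14, adjusted p 0.0149 by the quasi-likelihood test of edgeR, Benjamini-Hochberg adjusted over all genes). In HCC44 it rose 1.82-fold, at 0.86 ± 0.14 with an adjusted p of 0.000754 by the same edgeR test. Without H1975 DMSO replicate 2 the H1975 value was 0.39 with an adjusted p of 0.0632 by edgeR, and the call was lost. Antisense genes that overlap LIF exons, LIF-AS1 and LIF-AS2, had at most 24 reads in any library, against at least 9030 for LIF.

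**Figure D1:**
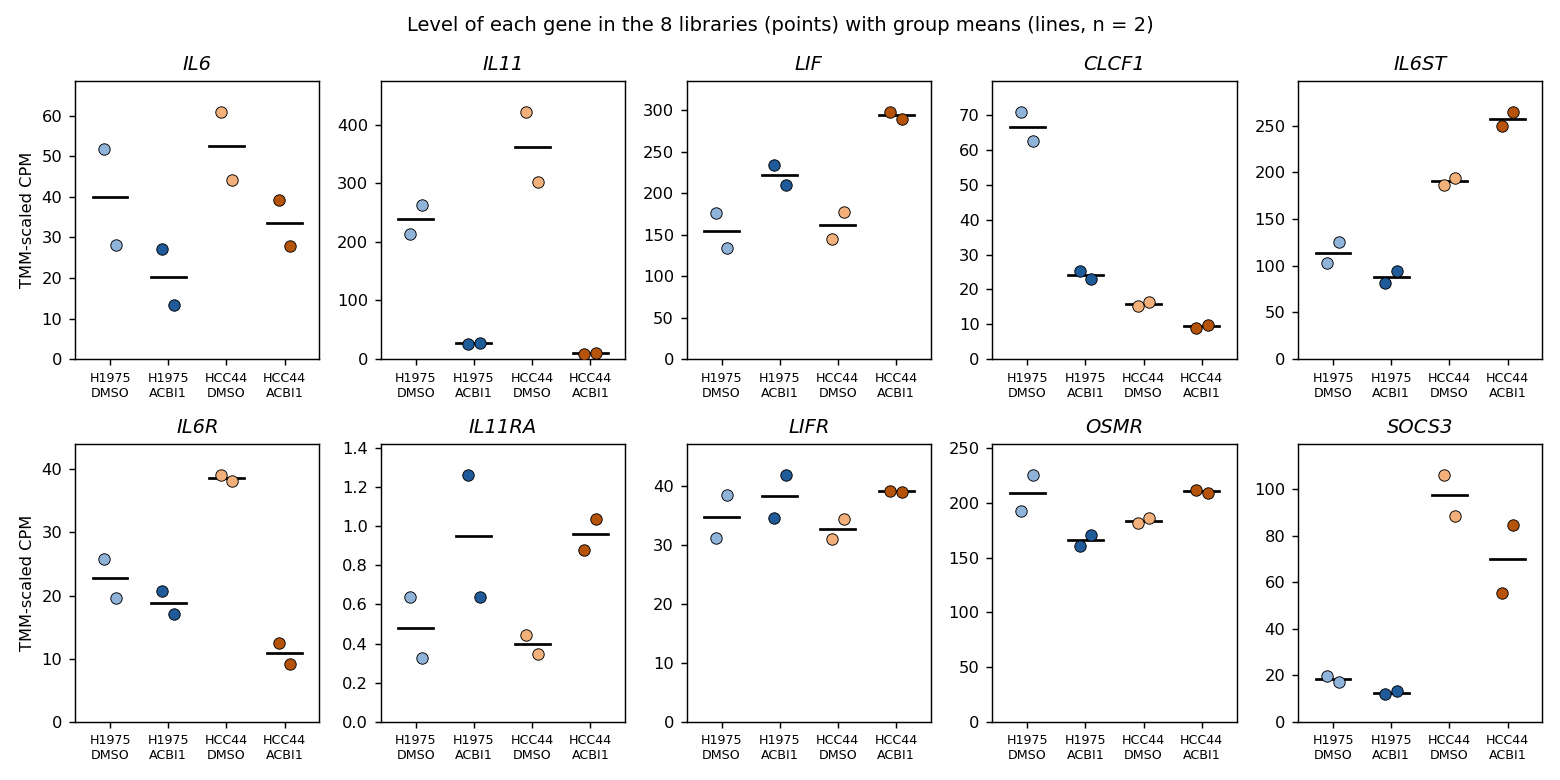
TMM-scaled CPM of each of the 10 genes in each library, with 1 panel per gene and axes that start at 0. Points are the 2 libraries of a group and the horizontal bars are group means. IL11 is low in all 4 ACBI1 libraries, whereas LIF is high in them.

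IL6 itself showed no called change in the fit of 1 mean per group. IL6, at chr7:22725884-22732002, encodes the founding cytokine of the family and a driver of the acute phase response. It was at 51.9 and 28.1 CPM in H1975 DMSO and at 27.2 and 13.2 CPM in H1975 ACBI1. In HCC44 it was at 61.0 and 44.2 CPM with DMSO and at 39.3 and 27.8 CPM with ACBI1. The ACBI1 libraries were below the DMSO libraries in both lines, narrowly in each. With a replicate block fitted, a fall was called in both lines, as given further below, although the labels pair no replicates. The log2 fold change was -0.98 ± 0.41 in H1975 (adjusted p 0.117) and -0.65 ± 0.41 in HCC44 (adjusted p 0.273), both by edgeR's quasi-likelihood test. Of its 2069 merged exon bases, 46 are shared with STEAP1B and 428 with the antisense gene IL6-AS1. Reads in these shared bases cannot be told apart without the strand setting.

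CLCF1, at chr11:67364168-67374177, encodes a ligand of the CNTFR, LIFR and gp130 receptor. It was at 71.0 and 62.6 CPM in H1975 DMSO and at 25.3 and 23.1 CPM in H1975 ACBI1. The HCC44 libraries were at 15.2 and 16.4 CPM with DMSO and at 9.03 and 9.79 CPM with ACBI1. The groups did not overlap in either line. CLCF1 fell in both, with log2 fold changes of -1.47 ± 0.12 for H1975 (adjusted p 1.93e-05) and -0.75 ± 0.12 for HCC44 (adjusted p 0.000706) by edgeR. Of the 4 ligands, CLCF1 fell in both lines by the test, LIF rose in both, and IL11 was lower in both. IL6 was called in neither line in the fit of 1 mean per group.

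Among the receptor chains, IL6R differed most with ACBI1, and this was in HCC44. IL6R, at chr1:154405193-154469450, binds IL-6 and is also shed from cells as a soluble receptor. In HCC44 it was at 39.2 and 38.2 CPM with DMSO and at 12.5 and 9.16 CPM with ACBI1. In H1975 it was at 25.8 and 19.7 CPM with DMSO and at 20.7 and 17.1 CPM with ACBI1. The HCC44 groups were well apart, while the H1975 groups overlapped. IL6R fell by 1.84 ± 0.18 on the log2 scale in HCC44, with an adjusted p of 3.69e-05 by edgeR's quasi-likelihood test. In H1975 the log2 fold change was -0.27 ± 0.17, with an adjusted p of 0.276 by edgeR.

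IL6ST, the gene of gp130 at chr5:55935095-55994993, moved in opposite directions in the lines. An antisense gene shares 797 exon bases with it and had at most 13 reads in any library. IL6ST was at 103 and 125 CPM in H1975 DMSO and at 81.6 and 93.8 CPM in H1975 ACBI1. The HCC44 libraries were at 187 and 194 CPM with DMSO and at 250 and 265 CPM with ACBI1. The groups did not overlap in either line. The log2 fold change was -0.38 ± 0.11 in H1975 (adjusted p 0.0228) and 0.43 ± 0.11 in HCC44 (adjusted p 0.00998), by edgeR's quasi-likelihood test. Neither single-line call was firm. The H1975 call was lost with library totals (-0.17), without H1975 DMSO replicate 2 (-0.18) and without H1975 ACBI1 replicate 1 (-0.25), and the HCC44 call was lost without HCC44 DMSO replicate 1 (0.40) or HCC44 ACBI1 replicate 2 (0.39).

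OSMR, at chr5:38845858-38945596, is the oncostatin M receptor chain. It was at 193 and 226 CPM in H1975 DMSO and at 160 and 171 CPM in H1975 ACBI1. In HCC44 it was at 181 and 186 CPM with DMSO and at 212 and 209 CPM with ACBI1. The groups did not overlap, and the order of DMSO and ACBI1 was opposite in the 2 lines. OSMR fell in H1975 by 0.34 ± 0.09 on the log2 scale, with an adjusted p of 0.0187 by edgeR's quasi-likelihood test, and was at 0.20 ± 0.09 in HCC44 with an adjusted p of 0.124. The H1975 call was lost with library totals (-0.13), with DESeq2 (-0.31, adjusted p 0.0507), and without H1975 DMSO replicate 2 (-0.17), H1975 ACBI1 replicate 1 (-0.26) or H1975 ACBI1 replicate 2 (-0.36). In HCC44 it became a called rise with upper-quartile factors (0.25) and library totals (0.29), and its exons overlap RICTOR.

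LIFR, at chr5:38474963-38608354, is the chain shared by LIF, oncostatin M and CLCF1. It was at 31.3 and 38.4 CPM in H1975 DMSO and at 34.7 and 42.0 CPM in H1975 ACBI1, which overlap. The HCC44 libraries were at 31.1 and 34.5 CPM with DMSO and at 39.3 and 39.0 CPM with ACBI1, which do not. Neither line gave a call, with log2 fold changes of 0.14 ± 0.13 (adjusted p 0.467) and 0.26 ± 0.13 (adjusted p 0.160) by edgeR's quasi-likelihood test. The antisense gene LIFR-AS1 shares 629 exon bases with LIFR and had 20 to 105 reads a library.

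IL11RA, the chain that binds IL-11 at chr9:34650702-34661892, was close to the limit of detection. It held 41 and 22 reads in H1975 DMSO, 95 and 45 in H1975 ACBI1, 28 and 22 in HCC44 DMSO and 55 and 66 in HCC44 ACBI1. The H1975 groups overlapped and the HCC44 groups did not. The log2 fold change was 0.99 ± 0.41 in H1975 (adjusted p 0.0954) and 1.28 ± 0.43 in HCC44 (adjusted p 0.0392) by edgeR's quasi-likelihood test. The HCC44 call was lost whichever of its libraries was left out, at 1.47 and 1.11 without DMSO replicate 1 or 2 and at 1.39 and 1.15 without ACBI1 replicate 1 or 2. In H1975 it was called with library totals (1.19), with no filter (0.98) and without H1975 ACBI1 replicate 2 (1.42). IL11RA shares 334 exon bases with GALT, which had 35 to 127 reads a library. It shares 410 with a further protein-coding gene on the same strand, which had 19 to 73 reads a library. The IL11RA counts are uncertain for this reason as well.

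SOCS3, at chr17:78356778-78360077, encodes the feedback inhibitor of gp130 signalling and is a standard readout of STAT3 activity. It was at 19.5 and 17.1 CPM in H1975 DMSO and at 11.8 and 13.2 CPM in H1975 ACBI1. In HCC44 it was at 106 and 88.3 CPM with DMSO and at 55.3 and 84.5 CPM with ACBI1. The ACBI1 libraries were below the DMSO libraries in both lines, with 1 HCC44 ACBI1 library near the DMSO level. The log2 fold changes were -0.55 ± 0.19 (adjusted p 0.0536) and -0.48 ± 0.18 (adjusted p 0.0705), neither called by edgeR's quasi-likelihood test. DESeq2 called both (-0.51, adjusted p 0.0288, and -0.48, adjusted p 0.0324), as did edgeR with no filter (-0.55 and -0.47). The H1975 libraries fitted alone (-0.55) and HCC44 without ACBI1 replicate 2 (-0.82) also gave a call.

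Of the 9 members other than IL11, 1 rose and 3 fell in H1975, where 31.3% of all 21307 tested genes were called, 14.6% higher and 16.7% lower. In HCC44, 3 rose and 2 fell, where 34.9% of tested genes were called, 17.5% higher and 17.4% lower. CLCF1 fell in both lines, as did 7.08% of tested genes, LIF rose in both, as did 5.83%, and IL6ST was called in opposite directions, as were 2.23%. These contrasts entered the choice of members through IL11, so nothing is read from the shares. The median log2 fold change of the 9 was -0.34 in H1975 and 0.20 in HCC44, beside -0.01 and 0.01 for all tested genes. The groups did not overlap for 7 of the 10 members in H1975 and for all 10 in HCC44, beside 67.3% and 66.8% of tested genes.

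**Figure D2:**
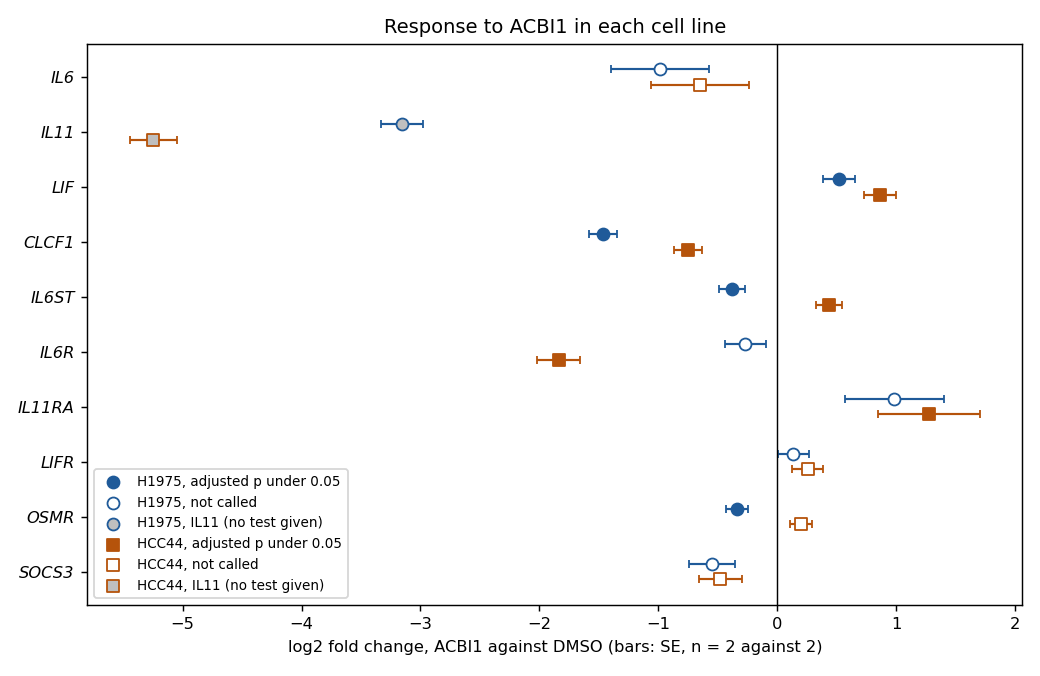
Log2 fold change of ACBI1 against DMSO for each of the 10 genes in H1975 and HCC44, with bars for the SE from the edgeR fit. Filled symbols passed the test, open ones did not, and grey ones mark IL11, for which no test is given. IL11 stands farthest below 0 in both lines, and IL6ST and OSMR lie on opposite sides of 0 in the 2 lines.

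Whether the lines responded differently was tested as the difference of the responses, HCC44 minus H1975, in the same edgeR fit. It was called for 4 of the 9 genes other than IL11, 3 more positive and 1 more negative in HCC44. Among all genes tested 18.6% were called, 10.2% more positive and 8.4% more negative. IL6R differed by -1.57 ± 0.25 (adjusted p 0.00209 by edgeR), more negative in HCC44. IL6ST differed by 0.81 ± 0.15 (adjusted p 0.00532), CLCF1 by 0.72 ± 0.16 (adjusted p 0.0129) and OSMR by 0.54 ± 0.13 (adjusted p 0.0175), all more positive in HCC44. The differences of IL6R and IL6ST were called under every alternative run. For IL11 the difference of its 2 log2 fold changes was -2.09, a description with no test. That of CLCF1 was lost without H1975 DMSO replicate 1 (0.63), H1975 ACBI1 replicate 2 (0.63) or HCC44 DMSO replicate 1 (0.66). That of OSMR was lost without H1975 DMSO replicate 2 (0.37), H1975 ACBI1 replicate 1 (0.46), H1975 ACBI1 replicate 2 (0.56), HCC44 DMSO replicate 1 (0.52) or HCC44 DMSO replicate 2 (0.56).

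No difference between the lines was called for LIF or IL6. The difference for LIF was 0.34, with a 95% interval of -0.08 to 0.77 and an adjusted p of 0.251 by edgeR. For IL6 it was 0.34, with a wider interval of -1.03 to 1.70 and an adjusted p of 0.752 by edgeR. LIFR, IL11RA and SOCS3 were not called either, with adjusted p-values of 0.717, 0.797 and 0.907 by edgeR. These intervals do not show that the lines responded alike.

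The solvent groups of the lines were compared as well. HCC44 DMSO and H1975 DMSO differed by the edgeR test in 4 of the 9 genes other than IL11, 3 higher and 1 lower in HCC44. Among all genes tested 67.9% were called, 31.6% higher and 36.4% lower, so calls were no more frequent in the family than among genes at large. SOCS3 was 5.32-fold higher in HCC44, a log2 difference of 2.41 ± 0.19 with an adjusted p of 2.74e-06 by edgeR. CLCF1 was lower in HCC44, with a log2 difference of -2.08 ± 0.12 and an adjusted p of 6.97e-08 by edgeR. IL6R (0.77 ± 0.17, adjusted p 0.00225) and IL6ST (0.74 ± 0.11, adjusted p 0.000108) were higher in HCC44 by edgeR. For IL11 the log2 difference was 0.60 ± 0.16, with no test given, and it was 0.35 without HCC44 DMSO replicate 1. LIF (0.06, adjusted p 0.704) and IL6 (0.39, adjusted p 0.418) gave no call by edgeR. The solvent levels of IL6, LIF, IL11RA and LIFR overlapped between the lines and those of the other 6 genes did not, beside 84.9% of tested genes without overlap. OSMR was at -0.19 ± 0.09 (adjusted p 0.0906 by edgeR) and was called lower in HCC44 with upper-quartile factors (-0.26), library totals (-0.31) or without H1975 DMSO replicate 1 (-0.31).

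To compare levels between genes, counts were divided by the length of each gene's merged exons and scaled to a sum of 1000000 in each library (TPM). In both solvent groups IL11 stood first, at 302 ± 62 TPM (SD, n = 2) in H1975 and 440 ± 101 TPM in HCC44, and LIF came next, at 130 ± 18 and 132 ± 19 TPM. With ACBI1, LIF stood first, at 220 ± 12 TPM in H1975 and 247 ± 4.7 TPM in HCC44. IL11 was then below LIF, OSMR and CLCF1 in H1975, at 39.6 ± 3.8 TPM, and below 6 of the other genes in HCC44, at 11.9 ± 1.5 TPM. IL11RA was lowest in all 4 groups, at 0.299 to 0.874 TPM. In H1975 DMSO the order was IL11, LIF, CLCF1, OSMR, IL6, IL6ST, SOCS3, IL6R, LIFR and IL11RA. Neighbours whose mean levels differed by less than the larger of their SDs were LIF and CLCF1, CLCF1 and OSMR, IL6 and IL6ST, and IL6R and LIFR. In H1975 ACBI1 the order was LIF, OSMR, CLCF1, IL11, IL6, IL6ST, SOCS3, LIFR, IL6R and IL11RA, and IL11 and IL6, IL6 and IL6ST, and LIFR and IL6R were within that spread.

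SOCS3 stood higher in the order in both HCC44 groups than in those of H1975, and IL6ST did so with ACBI1. HCC44 DMSO had the order IL11, LIF, SOCS3, OSMR, IL6, IL6ST, CLCF1, IL6R, LIFR and IL11RA. LIF and SOCS3, OSMR and IL6, and IL6 and IL6ST lay within the spread. HCC44 ACBI1 had the order LIF, OSMR, IL6ST, SOCS3, IL6, CLCF1, IL11, LIFR, IL6R and IL11RA. IL6ST and SOCS3, and IL11 and LIFR, lay within the spread there.

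**Figure D3:**
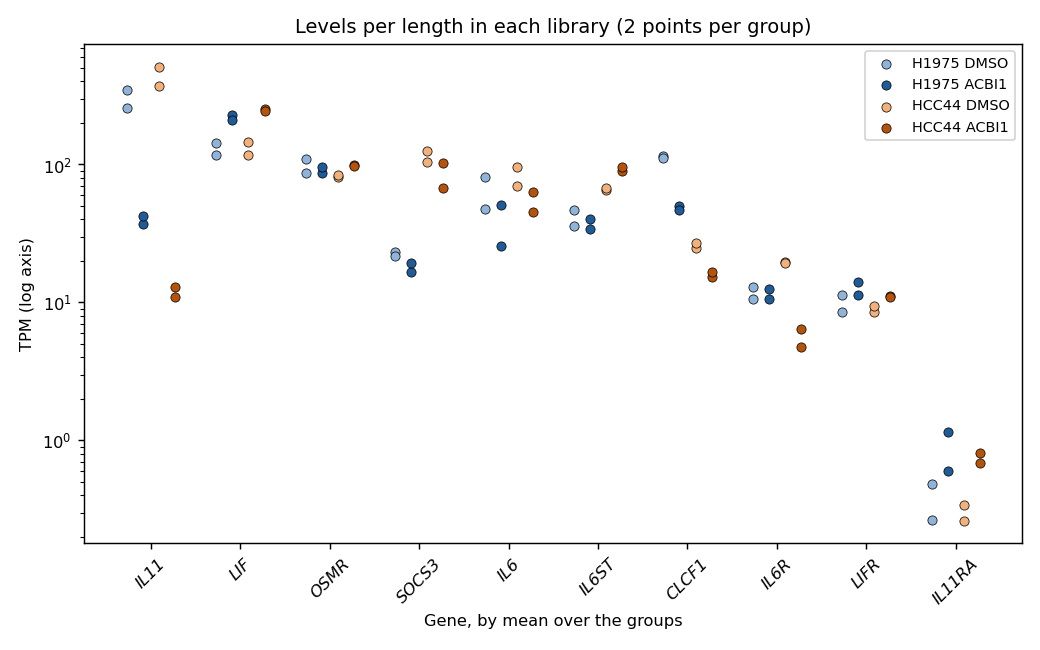
TPM of the 10 genes in the 4 groups, on a log axis, with 1 point per library. IL11 is the highest of the genes in both DMSO groups and LIF in both ACBI1 groups, with IL11RA below 2 TPM in every library.

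The 4 ligands summed to 598 to 621 TPM in H1975 DMSO and 326 to 367 TPM in H1975 ACBI1. In HCC44 the sum was 609 to 750 TPM with DMSO and 318 to 340 TPM with ACBI1. IL11 made up 49.4 ± 8.8% of the sum in H1975 DMSO and 11.5 ± 2.0% in H1975 ACBI1. In HCC44 its share was 64.3 ± 5.5% with DMSO and 3.64 ± 0.62% with ACBI1. LIF made up 21.4 ± 3.5% and 63.6 ± 1.7% in H1975, and 19.8 ± 5.7% and 75.1 ± 2.1% in HCC44. The leading ligand transcript thus was IL11 with DMSO and LIF with ACBI1 in every library. Per length, IL11 exceeded LIF by 1.81-fold to 4.33-fold in the DMSO libraries. LIF exceeded IL11 by 6.21-fold and 5.01-fold in H1975 ACBI1 and by 23.0-fold and 18.8-fold in HCC44 ACBI1. These shares rest in part on IL11, by which the family was chosen, and are descriptions.

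**Figure D4:**
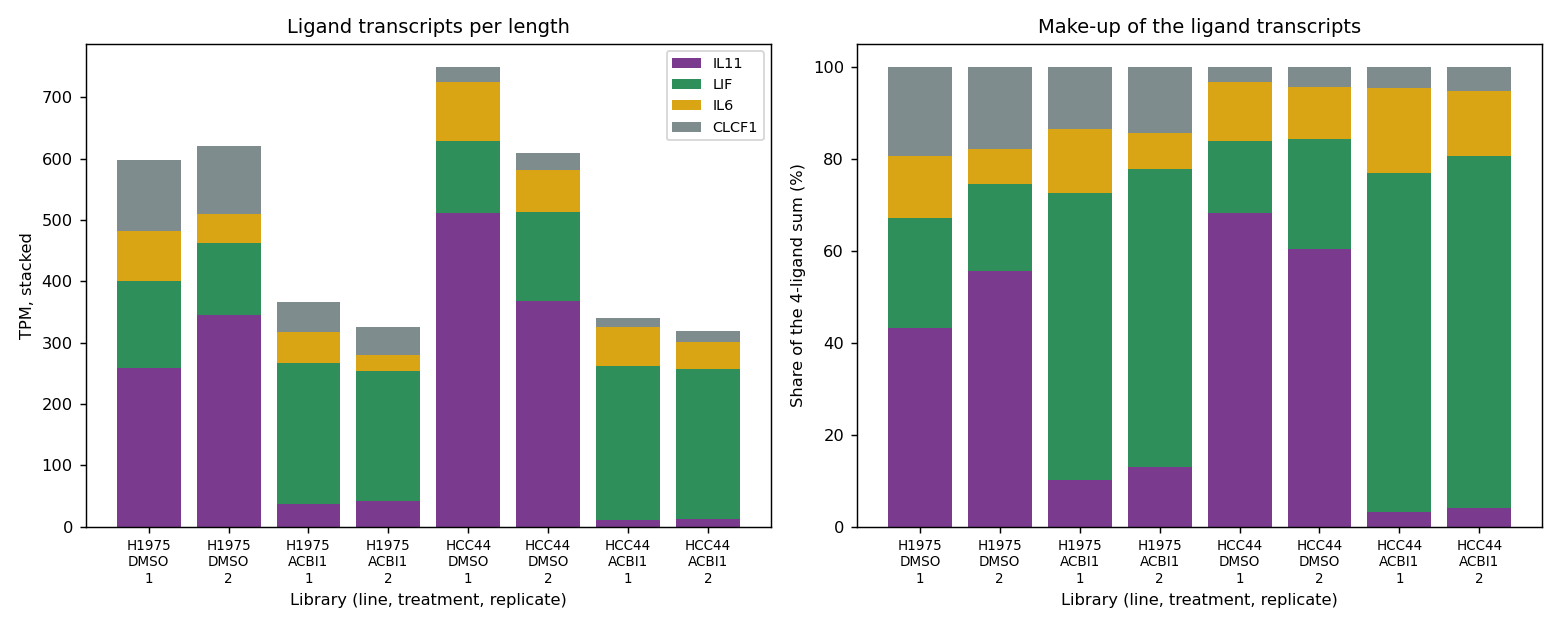
TPM of the 4 ligands (left) and the share of each in their sum, in percent (right), as stacked bars for each of the 8 libraries. The IL11 share is between 43.2% and 68.2% with DMSO and between 3.20% and 13.0% with ACBI1, and the LIF share is between 62.4% and 76.6% with ACBI1.

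Other genes of the pathway were counted in 5 lists taken by function, with earlier results of these data known. Of the other ligands and receptor chains that use gp130 or its relatives, 7 of 10 were tested, and 1 rose and 1 fell in each line, beside 31.3% of all tested genes called in H1975 and 34.9% in HCC44. OSM, the gene of oncostatin M, fell in HCC44 from 11.1 ± 0.033 to 4.20 ± 1.0 CPM, by 1.40 ± 0.22 on the log2 scale (adjusted p 0.000706 by edgeR's quasi-likelihood test). IL27RA, a receptor chain for IL-27, rose in HCC44 by 0.76 ± 0.12 (adjusted p 0.000786 by edgeR). IL31RA, a receptor chain for IL-31, fell in H1975 by 0.61 ± 0.14 (adjusted p 0.00778 by edgeR), and the call was lost without H1975 DMSO replicate 2 (-0.51) or H1975 ACBI1 replicate 2 (-0.38).

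Of 11 genes that carry the signal inside the cell, 1 rose and 3 fell in H1975, and 3 rose and 1 fell in HCC44, shares near the 31.3% and 34.9% of all tested genes called. JAK1, the main kinase of gp130, fell in H1975 by 0.62 ± 0.11 (adjusted p 0.00178 by edgeR). Its log2 fold change in HCC44 was 0.22 with no call, although it was called higher there with library totals (0.31) or without HCC44 ACBI1 replicate 1 (0.34). The JAK1 responses of the lines differed (adjusted p 0.00434 by edgeR). STAT3 itself, named here after its value was seen, was at -0.27 ± 0.08 in H1975 (adjusted p 0.0334 by edgeR) and -0.06 ± 0.08 in HCC44 (adjusted p 0.630). The H1975 call of STAT3 was lost with RLE factors (-0.24), upper-quartile factors (-0.20), library totals (-0.07) and DESeq2 (-0.24), and whichever of the 4 H1975 libraries was left out, at -0.32 and -0.17 without DMSO replicate 1 or 2 and at -0.17 and -0.31 without ACBI1 replicate 1 or 2. The test of its difference between lines gave an adjusted p of 0.263 by edgeR. In HCC44 the adaptor GRB2 fell by 0.41 ± 0.09 (adjusted p 0.00507 by edgeR). STAT5B rose in H1975 by 0.40 ± 0.09, with a call that was lost without H1975 ACBI1 replicate 2 (0.38). The adaptors GAB1 (0.51 ± 0.14) and SHC1 (0.42 ± 0.10) rose in HCC44, and SHC1 fell in H1975 (-0.34 ± 0.10, adjusted p 0.0281 by edgeR). The H1975 call of SHC1 was lost with RLE factors (-0.31), upper-quartile factors (-0.27), library totals (-0.14) and DESeq2 (-0.31), and without H1975 DMSO replicate 1 (-0.37), H1975 DMSO replicate 2 (-0.27) or H1975 ACBI1 replicate 1 (-0.19). The GAB1 call was lost without HCC44 DMSO replicate 1 (0.46) or HCC44 ACBI1 replicate 1 (0.46), and the HCC44 call of SHC1 without HCC44 DMSO replicate 1 (0.43), HCC44 DMSO replicate 2 (0.40) or HCC44 ACBI1 replicate 2 (0.31).

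Of 24 genes known as STAT3 targets, 16 were tested, and 8 fell and none rose in H1975, while 5 fell and 3 rose in HCC44. Among all tested genes 16.7% fell and 14.6% rose in H1975, and 17.4% fell and 17.5% rose in HCC44. The median log2 fold change was -0.39 in H1975 and -0.23 in HCC44, beside -0.01 and 0.01 for all tested genes. These genes also answer to other factors. The list was made with earlier results of these data known, so nothing is read from its counts or medians. VEGFA, a vessel growth factor, had log2 fold changes of -1.68 ± 0.10 (adjusted p 4.48e-06 by edgeR) in H1975 and -0.66 ± 0.10 (adjusted p 0.000503 by edgeR) in HCC44, and so fell in both. TIMP1, a metalloproteinase inhibitor, fell in HCC44 by 1.62 ± 0.13 (adjusted p 1.33e-05), and BCL2L1, a survival gene, by 0.95 ± 0.09 (adjusted p 2.26e-05), by edgeR. In H1975 BCL2L1 was also called lower, at -0.40 ± 0.08 (adjusted p 0.00498 by edgeR), and TIMP1 was not called (-0.32 ± 0.13, adjusted p 0.0851). Of the rises in HCC44, the largest were JUNB, a JUN family transcription factor (0.83 ± 0.11, adjusted p 0.000204), and CEBPD, a C/EBP factor (0.74 ± 0.10, adjusted p 0.000282), by edgeR. TNFAIP3, an NF-kB inhibitor, fell in H1975 by 1.37 ± 0.33 (adjusted p 0.0174 by edgeR), and the call was lost without H1975 ACBI1 replicate 2 (-1.08) and with no filter.

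Of 12 other negative regulators, 2 rose and 2 fell in H1975, and 1 rose and 4 fell in HCC44, beside 31.3% and 34.9% of all tested genes called. CISH, a SOCS relative of STAT5 signalling, fell by 1.12 ± 0.22 (adjusted p 0.00348 by edgeR) with ACBI1 in H1975 and also in HCC44, where the log2 fold change was -1.05 ± 0.25 (adjusted p 0.00788 by edgeR). The HCC44 call was lost without HCC44 ACBI1 replicate 1 (-0.80). In HCC44 CISH was low, at 1.74 CPM with DMSO and 0.840 CPM with ACBI1, under the 5 CPM used for naming genes. SOCS1, named here after its value was seen, was under 5 CPM there too, at 2.65 CPM with DMSO and 1.09 CPM with ACBI1. It had the largest called fall of the list in HCC44 (-1.28 ± 0.27, adjusted p 0.00384 by edgeR) and no call in H1975 (-0.29 ± 0.26). SOCS7 rose in H1975 by 0.74 ± 0.13 (adjusted p 0.00177 by edgeR). PTPN1, a phosphatase of JAKs, fell in HCC44 by 0.65 ± 0.09 (adjusted p 0.000360 by edgeR). PIAS1, an inhibitor of STAT factors, fell in HCC44 by 0.48 ± 0.10 (adjusted p 0.00483 by edgeR). In H1975 PIAS1 was at -0.40 ± 0.11, with a call that was lost with library totals (-0.19) and without DMSO replicate 1 (-0.44) or 2 (-0.31) or ACBI1 replicate 1 (-0.38) or 2 (-0.35). PIAS3, an inhibitor of STAT3, rose by 0.31 ± 0.11 in H1975 and 0.42 ± 0.10 in HCC44. The H1975 call of PIAS3 was lost whichever of its 4 libraries was left out (0.31 to 0.38), and the HCC44 call was lost without DMSO replicate 1 (0.41), DMSO replicate 2 (0.43) or ACBI1 replicate 2 (0.27).

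Of 5 genes that cut or regulate the shedding of IL6R, 4 were tested. None was called in H1975 and 2 rose in HCC44, beside 31.3% of all tested genes called in H1975 and 17.5% called higher in HCC44. ADAM17, the main sheddase of IL6R, rose in HCC44 by 0.60 ± 0.10 (adjusted p 0.000909), and RHBDF2, its trafficking partner, by 0.65 ± 0.09 (adjusted p 0.000406), by edgeR. The difference between the lines was called for ADAM17 (0.48 ± 0.14, adjusted p 0.0369) and not for RHBDF2 (0.39 ± 0.13, adjusted p 0.0615), by edgeR. The ADAM17 difference was lost with RLE factors (0.45), library totals (0.37), DESeq2 (0.45) and with any 1 of 7 libraries left out, namely in H1975 DMSO replicate 2 (0.34), ACBI1 replicate 1 (0.35) or 2 (0.56), and in HCC44 DMSO replicate 1 (0.42) or 2 (0.55), ACBI1 replicate 1 (0.46) or 2 (0.51). That of RHBDF2 was called with the filter of 1 CPM in 2 libraries (0.39) and without HCC44 ACBI1 replicate 1 (0.50).

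**Figure D5:**
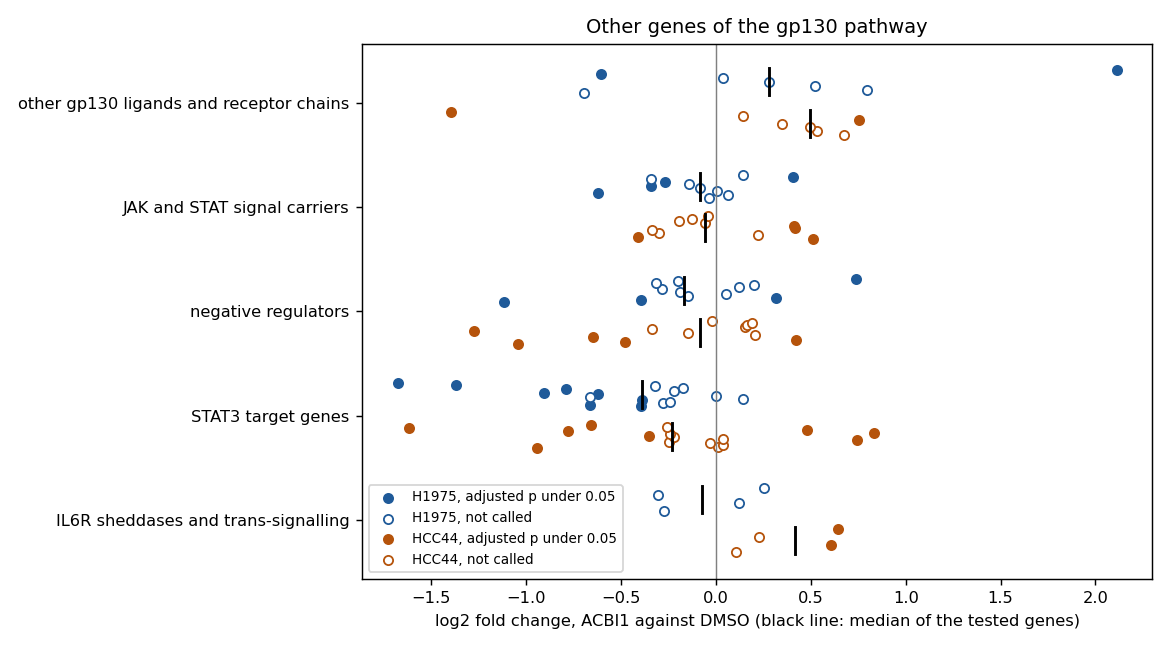
Log2 fold change of ACBI1 against DMSO for each tested gene of the 5 pathway lists in each line, with filled points for genes called, open points for the others and black lines for the medians. The STAT3 target list has 8 falls and no rise in H1975, and 5 falls and 3 rises in HCC44.

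The genes whose pattern over the 8 libraries lay nearest to that of IL11 were found among 12670 genes by the root mean square difference of centred log2(CPM + 0.1). AGT, the gene of angiotensinogen, was nearest at 0.257. It was at 5.17 CPM in H1975 DMSO, 0.700 CPM in H1975 ACBI1, 7.26 CPM in HCC44 DMSO and 0.135 CPM in HCC44 ACBI1. The next were RPLP0P2 (0.705), NUPR1 (0.708), OLAH (0.790) and SEMA3B (0.809), and RPLP0P2 is a pseudogene whose reads are uncertain. With ACBI1, AGT in HCC44 and OLAH in H1975 (0.190 CPM) and HCC44 (0.247 CPM) were near the added 0.1. Their distances therefore depend on that constant. For LIF the nearest were RALY-AS1 (0.0708), C20orf96 (0.0995), BCL2L12 (0.10), HELLS (0.103) and LINC00339 (0.106), and RALY-AS1 is an antisense gene whose reads are uncertain. LIF has a small range over the libraries, so its distances are small and are not comparable with those of IL11.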

How the data were processed

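RNA was sequenced in 8 libraries of the cell lines H1975 and HCC44, with 2 libraries in each of 4 groups taken from the labels. The authors deposited 1 table of raw counts of reads per gene for each library, with 61228 gene names. Per the submitters' processing notes, TopHat2 2.1.1, HTSeq 0.11.0 and build hg38 were used. The strand setting and the annotation are not given in the sources used here. The 5 summary rows of each table held 14.3 to 15.8% of its total and stayed out of library sizes and tests.

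Counts were fitted with edgeR 4.0.16 in R 4.3.3 as 1 mean per group over all 8 libraries (4 residual degrees of freedom, common biological coefficient of variation 0.123). Genes were kept by filterByExpr (21307) and scaled with TMM factors. The quasi-likelihood F-test (robust, both directions) was adjusted by Benjamini-Hochberg over all genes tested, and an adjusted p under 0.05 was called. A standard error is the fold change divided by the square root of F. No replicate was a copy of another, since chi-square values divided by their degrees of freedom were 22.7 to 45.9. Lengths for TPM and overlaps came from GENCODE release 29 (GRCh38), to which 93.2% of names, with at least 99.8% of each library's counts, were matched.

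The members and gene lists were chosen with earlier results of these data known. Pathway genes are named by rule: in each list, line and direction, the 2 largest called changes whose mean reached 5 CPM in a group of the line. One gene was left out of the lists' counts and is not reported here. The procedure was also run on simulated counts, in which far fewer genes changed than were called here and the lines had the same base levels. Its outcome is not given, and nothing is read from it. Alternatives were DESeq2 1.42.0, library totals, RLE or upper-quartile factors, a replicate block, no filter or one of 1 CPM in 2 libraries, the comparison's libraries alone, each library left out in turn, and the longest transcript as length.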

Additional observations from a re-analysis of the deposited data

Results flagged for a closer look

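For 4 of the 9 genes other than IL11 the lines responded to ACBI1 to a different extent or in a different direction, by the test of the difference itself in the edgeR fit, beside 18.6% of all tested genes. Values are log2 fold changes in HCC44 minus those in H1975. IL6R differed by -1.57, and was called lower with ACBI1 in HCC44 (-1.84) and not called in H1975 (-0.27). IL6ST differed by 0.81 and OSMR by 0.54, and both were called lower with ACBI1 in H1975. In HCC44 IL6ST was called higher, while OSMR, at 0.20, was not called. None of the single-line calls of IL6ST and OSMR was firm. CLCF1 differed by 0.72, since it was lowered more in H1975. The differences of OSMR and CLCF1 were lost when some single libraries were left out.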

How the results depend on the processing

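Directions are relative to the TMM scale. Scaling by library totals shifted the median gene by 0.19 in H1975, -0.11 in the difference between the lines and -0.12 between the solvent groups (log2), and raised the share of rises among calls in H1975 from 46.6% to 72.3%. It moved that share in HCC44 from 50.0% to 60.5% and the share of positive differences from 54.9% to 40.5%. IL11 kept its direction throughout, between -3.31 and -2.95 for H1975 and between -5.46 and -5.00 for HCC44, as did LIF, between 0.39 and 0.73 and between 0.72 and 1.02. Leaving out 1 library at a time gave 3690 to 4590 genes called in H1975, against 6663 with all libraries. It gave 4945 to 6629 in HCC44, against 7438, and 2341 to 4134 for the difference, against 3967. Of the 9 members other than IL11 it gave 1 to 4 called in H1975, against 4, 3 to 4 in HCC44, against 5, and 2 to 4 for the difference, against 4. The member counts were lowest without H1975 DMSO replicate 2 (1) or H1975 ACBI1 replicate 1 (2) in H1975, without HCC44 DMSO replicate 1 (3) in HCC44, and without H1975 ACBI1 replicate 2 or HCC44 DMSO replicate 1 (2 each) for the difference. Only 2 libraries a group limit every one of these calls, and IL11RA is limited by its low counts. The cause of these shifts was not tested. With the longest transcript as length, the LIF share was 59.6% in H1975 ACBI1 and 70.4% in HCC44 ACBI1.

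Signs that turned belong to values with no call. With library totals STAT3 in HCC44 was 0.031, the difference of SOCS3 was -0.044, and the solvent difference of LIF was -0.056, or -0.014 with upper-quartile factors. With 1 library left out, LIFR in H1975 ranged from -0.0099 to 0.34. The difference between the lines ranged from -0.17 to 0.91 for IL6 (-0.12 in the other negative case), from -0.26 to 0.83 for IL11RA (-0.15), from -0.089 to 0.27 for LIFR (-0.05) and from -0.27 to 0.35 for SOCS3 (-0.05, -0.05 and -0.03). Between the solvent groups LIF reached -0.10 and -0.07, IL11RA ranged from -0.64 to 0.27 and LIFR from -0.24 to 0.12.

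The replicate numbers pair nothing by the labels, and the deviations of libraries that share a number correlated at 0.374 (H1975) and 0.109 (HCC44). A replicate block was fitted, and then the count of genes called for the difference was 6358. In HCC44, 9533 of the 21307 tested genes were then called, and 8 of those 9 members. IL6 was then called lower in H1975 (-1.01, adjusted p 1.3e-05 by edgeR) and HCC44 (-0.65, adjusted p 0.000126), with a called difference of 0.36 and a called solvent difference of 0.44. In the block fit IL11RA in H1975 (0.98), LIFR in HCC44 (0.26) and OSMR in HCC44 (0.20) and between the solvent groups (-0.19) were also called, as were JAK1 in HCC44 (0.22) and the difference of RHBDF2 (0.39).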

Other observations

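OSM changed in opposite directions in the lines, a comparison singled out after its values were seen. In H1975 it held 6 and 11 reads with DMSO and 42 and 40 with ACBI1, and in HCC44 it held 698 and 705 with DMSO and 309 and 220 with ACBI1. The log2 fold changes were 2.11 ± 0.37 and -1.40 ± 0.22, and the difference of -3.51 ± 0.43 had an adjusted p of 0.000540 by edgeR's quasi-likelihood test. At 0.562 CPM it remained near the limit of detection in H1975 ACBI1.

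IL6 and the genes that share its exons did not order their libraries alike. IL6-AS1 held 42 and 33 reads in H1975 DMSO and 74 and 69 in H1975 ACBI1, and 67 and 63 in HCC44 DMSO and 146 and 147 in HCC44 ACBI1. STEAP1B held 371 and 438 reads in H1975 DMSO and 666 and 704 in H1975 ACBI1, and 699 and 721 in HCC44 DMSO and 1060 and 952 in HCC44 ACBI1. Both were higher in the ACBI1 libraries of each line, where IL6 was lower. No test was made of these values, and reads in the shared exon bases cannot be told apart without the strand setting.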
